A study of Mus musculus with 10 samples.

Results

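The genes examined were the nuclear genes for the subunits of oxidative phosphorylation, in intestinal epithelial cells (IECs) of the mouse colon with and without the small GTPase RhoB. They were chosen by a rule on gene names and not on values, though with earlier results of these data known. A row of the expression table was a member when its gene name began with Ndufa, Ndufb, Ndufc, Ndufs or Ndufv and a digit, was Sdha, Sdhb, Sdhc, Sdhd or Cyc1, or began with Uqcr, Cox4 to Cox8 or Atp5. Names carrying -ps were left out. The rule found 90 members among 55487 rows, after 13 names with -ps had been set aside, one of which, Ndufb1-ps, is not annotated as a pseudogene and averaged 73.0 TPM, and 80 members had a mean of at least 1 TPM (a read-based level per transcript length, scaled to a fixed total in each library) and were tested. RNA came from 5 WT and 5 RhoB-/- mice, 1 library per mouse, all on the C57BL/6J background and with no treatment in the labels, and the study's methods put the age of its mice at 6 to 8 weeks unless otherwise stated. The RhoB-/- line is described as a homozygous knockout, with no restriction to a tissue named, and WT males are stated to have been bought from a different source than the RhoB-/- line, so genotype and source of the animals cannot be told apart. IECs were released from the colon with EDTA and shaking, without sorting.

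Oxidative phosphorylation takes place at the inner mitochondrial membrane. Complex I oxidizes NADH and complex II oxidizes succinate, both pass electrons to ubiquinone, complex III passes them to cytochrome c, complex IV hands them to oxygen, and complex V uses the resulting proton gradient to make ATP. Complex II is coded wholly in the nucleus, while the other complexes also hold subunits coded by mitochondrial DNA. Colonocytes are known for oxidizing butyrate from the microbiota, which keeps oxygen low at the mucosal surface.

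Rhob itself, the targeted gene, was read at 171 to 389 TPM in the 5 WT libraries and at 0.09, 0.1, 0.35 and 0.57 TPM in RhoB-/- replicates 1 to 4. The library labelled RhoB-/- replicate 5 had 111 TPM of Rhob, below each WT library. It was kept in its labelled group, and where a call given below was lost without it, this is stated in the text beside the call or its count. Epithelial markers were abundant in every library, with 7 genes summing to between 9157 and 10512 TPM in WT mice and between 8636 and 13636 TPM in RhoB-/- mice.

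Of the 80 tested members, 0 were higher and 1 was lower in RhoB-/- IECs at an adjusted p below 0.05 in limma, against 7.73% higher and 13.5% lower among all 12870 tested genes. The member that fell was Ndufa4, a subunit of complex IV despite its name. This call was lost without WT replicate 2, RhoB-/- replicate 1 or the library labelled RhoB-/- replicate 5 (adjusted p of 0.0514, 0.0584 and 0.0536 in limma). At an unadjusted p below 0.05, limma gave 0 members higher and 4 lower, where 11.9% and 24.9% of all tested genes were, and at an unadjusted p below 0.05 with a change above 1.5-fold it gave 0 and 0 members, where 6.37% and 8.33% of all genes passed. The values of the WT and RhoB-/- libraries overlapped for 79 of the 80 members, Ndufa4 being the exception, and 5.97% of all genes were higher and 8.55% lower without overlap. The log2 fold changes of the members ran from -0.53 to 0.36 with a median of 0.03, and 48 were positive and 32 negative. All fold changes are RhoB-/- minus WT on the log2(TPM + 1) scale.

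The intervals were narrow enough to bound the changes. For 73 of the 80 members (91.2%) the 95% interval of the fold change in limma lay within 1.5-fold in both directions, compared with 46.5% of all tested genes. The 7 members whose interval reached further were Ndufa4, Cox7a2l, Cox7a1, Ndufb4c, Cox6a1, Cox6b2 and Atp5g2. The standard error of a member's log2 fold change ranged from 0.11 to 0.26, with a median of 0.14.

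**Figure D1:**
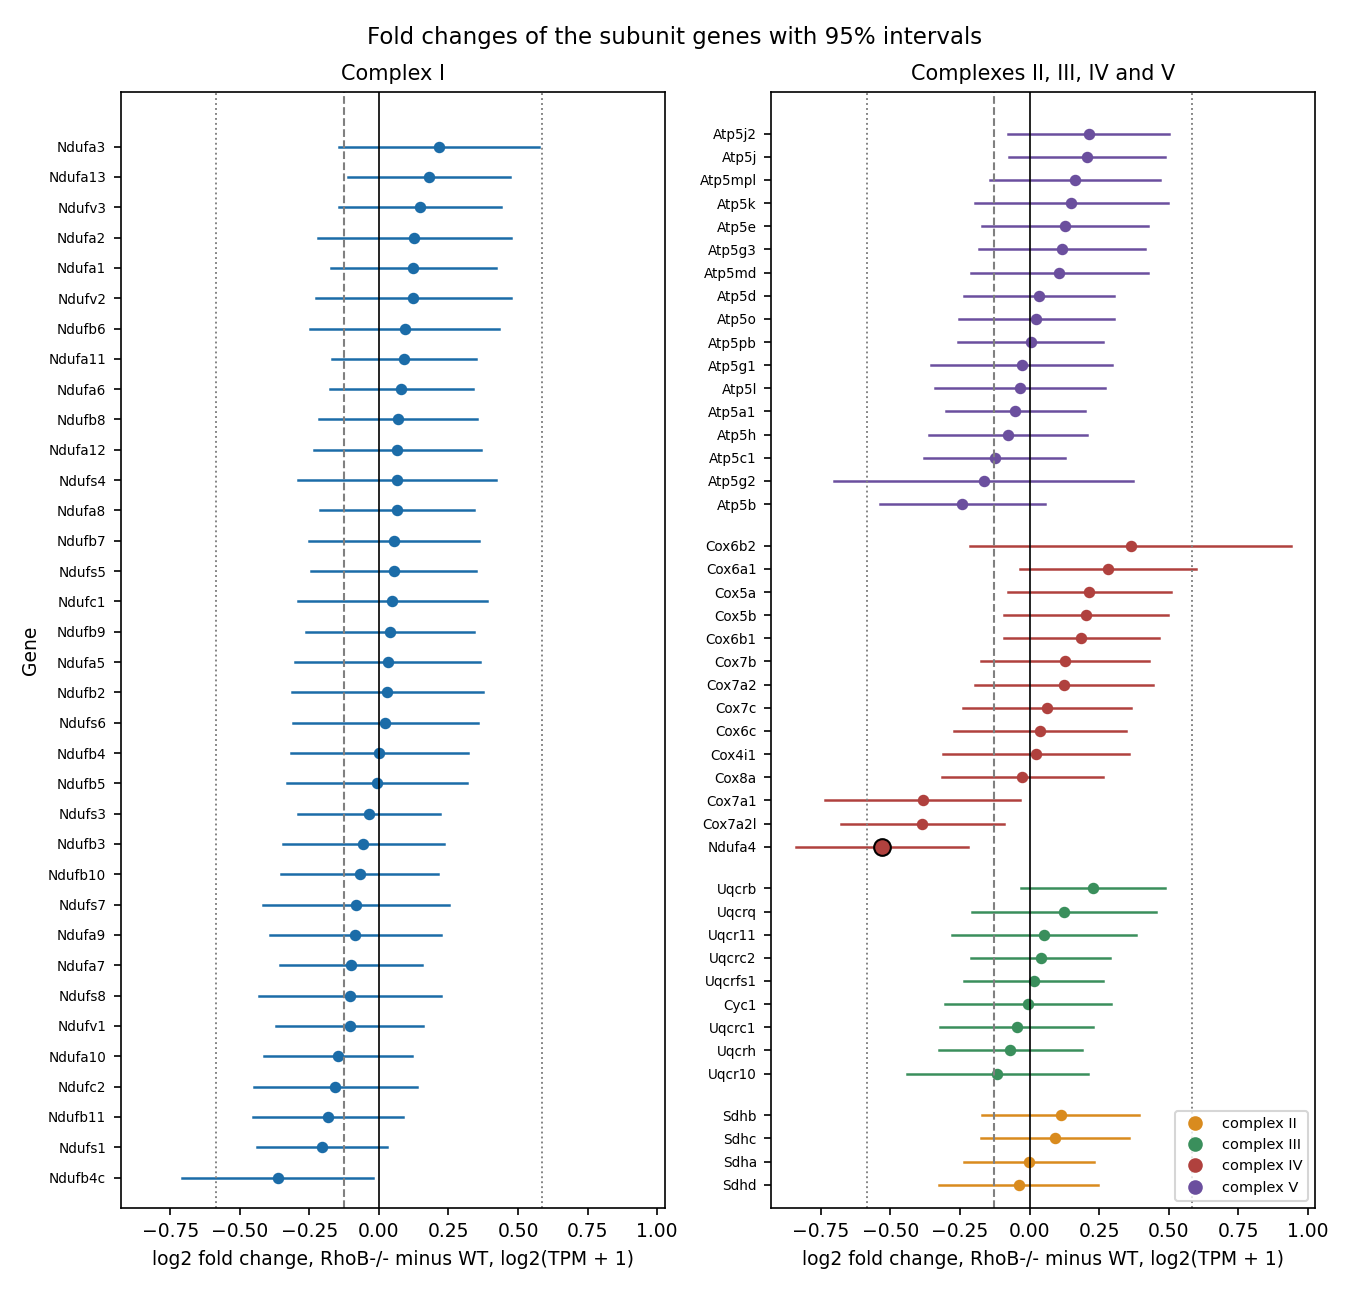
Log2 fold change of 79 of the tested members, RhoB-/- minus WT on log2(TPM + 1) (x axis), by gene (y axis), for complex I on the left and complexes II to V on the right. Points are limma estimates, lines their 95% intervals, dotted lines mark 1.5-fold, the dashed line is the median of all tested genes (-0.13), and Ndufa4 at -0.53 is the member drawn larger with a black rim because its adjusted p was below 0.05.

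The typical tested gene was lower in RhoB-/- libraries, with a median log2 fold change of -0.13, so a member near 0 lay above the typical gene. By this measure 70 of the 80 members (87.5%) were above the median of all tested genes, where 50% of all genes are by construction. The median of the members lay 0.16 above that of all genes, and it was the higher in each of 21 alternative settings, by 0.0086 to 0.22. Of these settings 1 changed only the membership. A replicate block, limma without trend and centring the libraries, on all genes or on the members, could not change the gap. The 0.0086 came with quantile normalization, where the medians of the members (-0.04) and of all genes (-0.05) nearly met. The size of this gap thus depended on quantile normalization, and also on which libraries were kept. The medians of the members and of all genes were 0.07 and -0.15 without WT replicate 3. Without RhoB-/- replicate 3 they were -0.06 and -0.17. The sign of the members' median was less settled, since it was negative in 5 of the 21 settings. Among them it was -0.04 with quantile normalization and -0.04 with mitochondrially encoded genes left out. When each library was centred on the median deviation of its genes, 9 members (11.2%) were higher and 2 (2.50%) lower at an adjusted p below 0.05 in limma, where 15.6% and 12.8% of all tested genes were.

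The members moved together from library to library. RhoB-/- replicate 3 had the highest value of all 10 libraries for 67 of the 80 members, and RhoB-/- replicate 2 had the lowest for 54. The library medians of the members' deviations on the log2 scale were -0.15, 0.11, 0.12, 0.0027 and -0.10 in WT replicates 1 to 5 and -0.13, -0.28, 0.40, 0.01 and 0.07 in RhoB-/- replicates 1 to 5. Over all tested genes the same medians were -0.07, 0.20, -0.01, 0.15 and 0.0089 in WT replicates 1 to 5. In RhoB-/- replicates 1 to 5 they were -0.12, -0.25, 0.10, -0.05 and 0.02. So RhoB-/- replicate 2 was low for genes in general, while replicate 3 was higher for the members (0.40) than for all genes (0.10). The 5 complexes shared these extremes, since in replicate 3 of RhoB-/- their medians lay between 0.36 and 0.41 and in replicate 2 between -0.30 and -0.20. A member's coefficient of variation was 9.40% in WT and 18.0% in RhoB-/- libraries at the median, and 11.4% in RhoB-/- without replicate 3. Once the shift common to the members in each library had been subtracted, the median SD on the log2 scale went from 0.13 to 0.08 in WT and from 0.26 to 0.07 in RhoB-/-. Subtracting a shift drawn from the members themselves lowers their spread almost by construction. The fall for other genes is not given, so these SDs are a description only.

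The share of transcripts coded by mitochondrial DNA lay between 17.5% and 26.5% in WT, and in RhoB-/- mice between 10.3% and 22.4%. The lowest share was in RhoB-/- replicate 3, which had the highest member values, and the highest was in WT replicate 1. Together the members made up from 3.13% to 3.84% of all TPM in WT mice and from 2.95% to 4.55% in RhoB-/- mice. Among transcripts not coded by mitochondrial DNA they took 4.12% to 4.68% in WT and 3.80% to 5.07% in RhoB-/-, so RhoB-/- replicates 3 and 2 remained the extremes. TPM is a share of each library, and how far the mitochondrial share set the members' values was not tested.

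**Figure D2:**
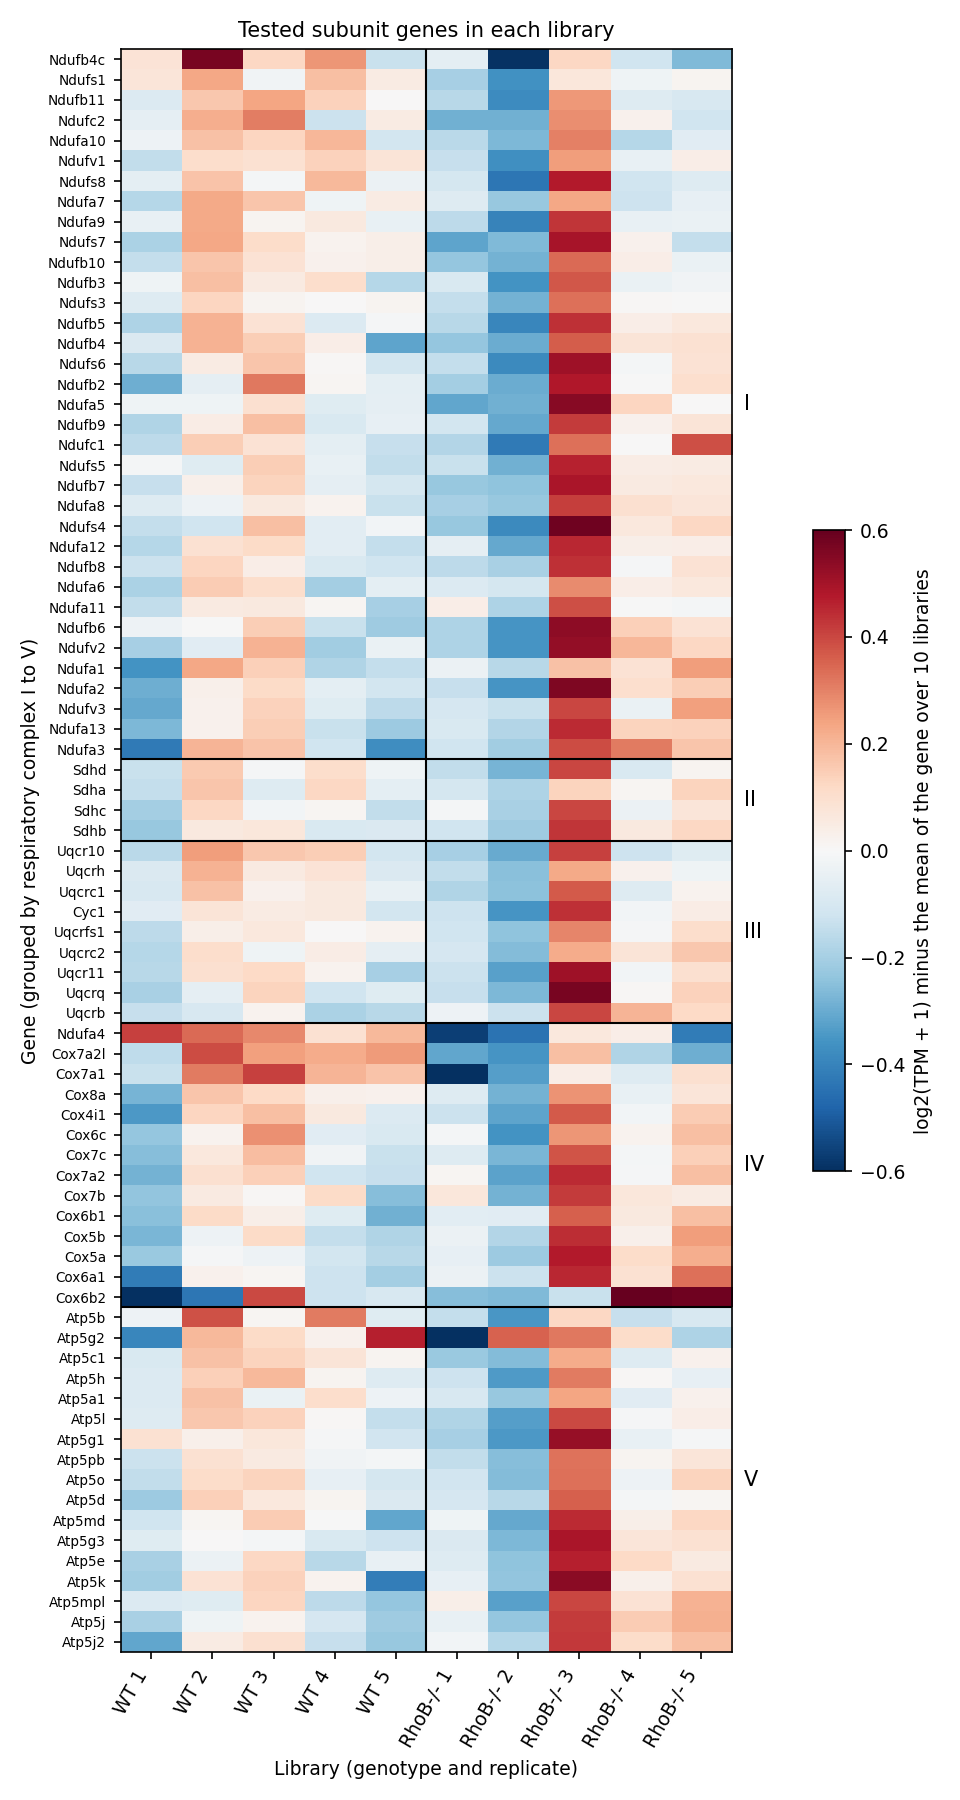
Values of 79 of the tested members (y axis, grouped by complex and ordered by fold change) in each library (x axis), coloured by log2(TPM + 1) minus the gene's mean over the 10 libraries, with colours saturating at 0.6 in both directions. RhoB-/- replicate 3 is red in nearly every row and RhoB-/- replicate 2 blue, while Ndufa4, Cox7a2l and Cox7a1 depart from the other complex IV genes.

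Levels differed between the complexes. In WT libraries the median member of complex I was at 177 TPM (36 tested), that of complex II at 238 TPM (4 tested), that of complex III at 452 TPM (9 tested), that of complex IV at 700.4 TPM (14 tested) and that of complex V at 597 TPM (17 tested). The most abundant members were Ndufa6 in complex I, at 559 ± 63.9 TPM (SD, n = 5 here and below), Sdhd in complex II, at 271 ± 21.3 TPM, Uqcr10 in complex III, at 1105 ± 137 TPM, Cox6a1 in complex IV, at 1736 ± 211 TPM, and Atp5b in complex V, at 2528 ± 374 TPM. The spread of levels inside a complex was wide, from 70.5 TPM for Ndufs4 to 559 TPM in complex I when Ndufb4, whose reads may be assigned to another row, is left aside, although each subunit is present in the assembled complex in a fixed ratio. Summed over its members, complex I had 7295 ± 633 in WT and 7439 ± 1329 TPM in RhoB-/-, complex II 880.0 ± 68.8 and 908 ± 142 TPM, complex III 4817 ± 369.8 and 4923 ± 879 TPM, complex IV 10353 ± 1121 and 11098 ± 1803 TPM, and complex V 11470 ± 902 and 11515 ± 1902 TPM. These sums differed between the genotypes by less than 1 SD of either group.

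**Figure D3:**
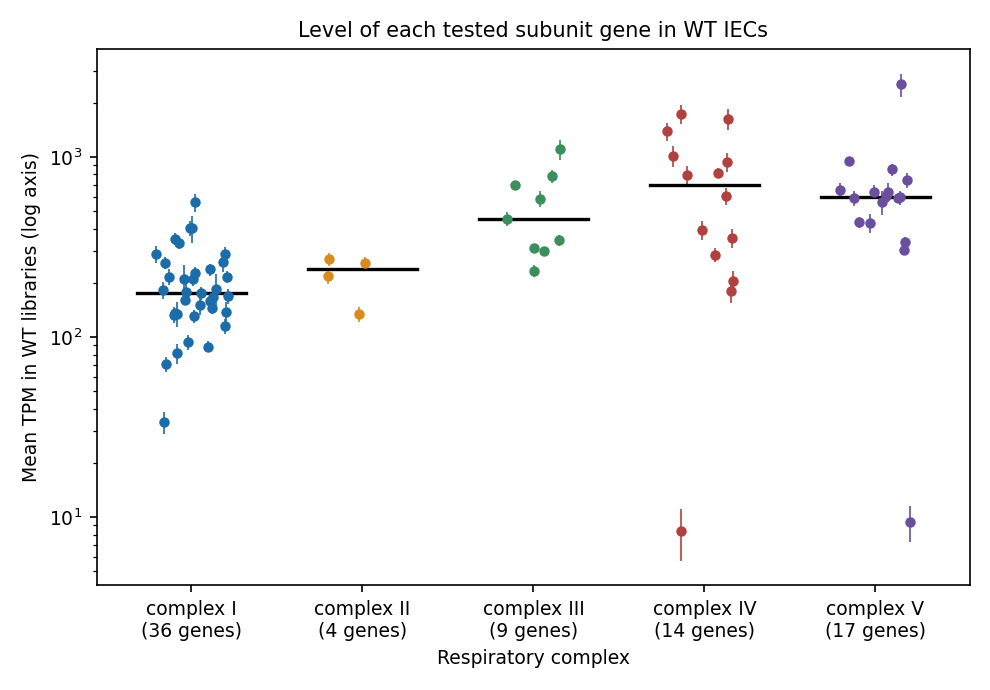
Mean TPM in the 5 WT libraries (y axis, log axis) of each tested member, by complex (x axis). Bars are the SD over libraries and black lines the medians, which run from 177 TPM in complex I to 700.4 TPM in complex IV, and the lone low points are Cox6b2 and Atp5g2.

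The stretch around the transcription start is shown for 3 members, because they mark the lower, the higher and the most abundant ends of the results: Ndufa4, which fell, Cox6a1, the most abundant complex IV member, with the largest positive fold change of any member but the low Cox6b2, and Atp5b, the most abundant member of all. Each is a RefSeq window of 300 bases on GRCm38.p6, from 250 bases before to 50 bases after the start, printed in the direction of transcription, with motif matches in capitals.
Ndufa4 (chr6:11907401-11907700, minus strand): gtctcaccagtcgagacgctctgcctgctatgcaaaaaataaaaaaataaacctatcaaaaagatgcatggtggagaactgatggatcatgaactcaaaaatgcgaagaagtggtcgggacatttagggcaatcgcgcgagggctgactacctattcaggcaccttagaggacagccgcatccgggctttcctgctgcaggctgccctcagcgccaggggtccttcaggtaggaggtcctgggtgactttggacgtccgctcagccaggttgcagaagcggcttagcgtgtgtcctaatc
Cox6a1 (chr5:115348909-115349208, minus strand): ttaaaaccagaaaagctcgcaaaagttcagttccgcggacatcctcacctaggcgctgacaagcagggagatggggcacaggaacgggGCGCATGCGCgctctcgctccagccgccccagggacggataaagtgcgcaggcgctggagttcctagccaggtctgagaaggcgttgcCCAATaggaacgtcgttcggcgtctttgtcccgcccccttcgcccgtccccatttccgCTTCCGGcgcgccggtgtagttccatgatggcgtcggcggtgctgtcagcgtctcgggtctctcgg
Atp5b (chr10:128083057-128083356, plus strand): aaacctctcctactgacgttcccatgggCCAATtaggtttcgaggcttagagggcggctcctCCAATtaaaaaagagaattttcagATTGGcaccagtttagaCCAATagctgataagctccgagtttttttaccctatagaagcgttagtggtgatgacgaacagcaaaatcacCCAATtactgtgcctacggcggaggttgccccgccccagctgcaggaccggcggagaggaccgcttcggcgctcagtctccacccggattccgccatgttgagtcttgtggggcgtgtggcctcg
Windows were searched on both strands for the letters GCGCATG (part of the NRF1 site), CCGGAAG (ETS factors such as GABP), AAGATGG (YY1), AAGGTCA (estrogen-related receptors), CCAAT (the CCAAT box) and TATAAA (the TATA box), which are known from promoters of respiratory genes or of genes in general. Capitals in Cox6a1 are, in order, a pair of overlapping GCGCATG matches on opposite strands, a CCAAT and a CCGGAAG on the other strand, and those in Atp5b are 5 CCAAT matches. The Ndufa4 window held none of these letters.

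RefSeq held windows for 69 of the 90 members, 74 windows in all. GCGCATG was in 17.6% of them and in 3.91% of all 32851 windows, CCGGAAG in 23.0% and 8.86%, AAGATGG in 14.9% and 6.34%, and AAGGTCA in 10.8% and 4.72%. For CCAAT the shares were 41.9% and 37.4%, and for TATAAA 12.2% and 13.6%. These are matches of letters, not measured binding.

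Complex I, the NADH dehydrogenase, had 38 members of which 36 were tested. At an adjusted p below 0.05 in limma 0 of these passed, and at an unadjusted one 1 did, Ndufb4c. Ndufa11b and Ndufs6b, annotated as processed pseudogenes, were listed at 0 in every library. The 7 core nuclear subunits, which carry the flavin and the iron-sulfur clusters, had log2 fold changes from -0.20 to 0.12 with a median of -0.10, and 1 of the 7 was positive. Ndufs1, the largest iron-sulfur subunit, was at 88.6 ± 6.37 in WT and 77.1 ± 9.25 TPM in RhoB-/- (log2 fold change -0.20, SE 0.11, adjusted p = 0.186 in limma). Ndufv1, which binds NADH and flavin mononucleotide, was at 145 ± 10.96 and 136 ± 21.4 TPM, and its partner Ndufv2 at 151 ± 18.5 and 168 ± 40.6 TPM. Among the subunits that lead electrons to ubiquinone, Ndufs3 was at 135 ± 6.99 and 133 ± 22.1 TPM, Ndufs7 at 183 ± 19.3 and 176 ± 43.8 TPM, and Ndufs8 at 175 ± 14.97 and 166 ± 40.8 TPM. All these differences were smaller than the larger of the SDs of both groups except that of Ndufs1.

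The 28 accessory subunits of complex I had a median log2 fold change of 0.05, and 20 of them were positive. Core subunits have longer transcripts, with a median of 1623 bases against 718 bases for the accessory subunits, and the same split appeared by length across all tested members, of which 27 of the 40 with shorter transcripts and 21 of the 40 with longer ones were positive. The part of transcript length in these signs was not tested. Members as a whole have short transcripts, with a median of 823.5 bases against 2672 bases for all tested genes with a position. Ndufb4c had the largest change in complex I, at 210.5 ± 39.5 in WT and 163 ± 29.2 TPM in RhoB-/- (log2 fold change -0.36, SE 0.16, adjusted p = 0.118 in limma). It is annotated as a processed pseudogene of Ndufb4, a subunit of the membrane arm, and reads of the pair can be assigned to either. Ndufb4 was listed at 33.7 ± 4.84 in WT and 33.9 ± 6.57 TPM in RhoB-/-, and the sum of both ran from 194 to 311 TPM in WT and from 148 to 243 TPM in RhoB-/-, so neither value stands securely on its own.

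Complex II, the succinate dehydrogenase that also serves the citric acid cycle, showed the smallest range. Its 4 log2 fold changes lay between -0.04 and 0.11, with 0 passing in limma at an adjusted or an unadjusted p below 0.05. Sdha, the flavoprotein, was at 219 ± 20.8 in WT and 219 ± 21.5 TPM in RhoB-/-, and Sdhb, the iron-sulfur subunit, at 256 ± 21.7 and 279.6 ± 50.3 TPM. The membrane anchors were at 134 ± 12.2 and 144 ± 23.3 TPM for Sdhc and at 271 ± 21.3 and 266 ± 51.3 TPM for Sdhd. The 95% interval of Sdha, from -0.24 to 0.23, was among the tightest of the members.

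In complex III, the cytochrome bc1 complex, 0 of the 9 members passed an adjusted or an unadjusted p below 0.05 in limma. Cyc1, the cytochrome c1 subunit, was at 301 ± 17.6 in WT and 305 ± 63.8 TPM in RhoB-/-, and Uqcrfs1, the Rieske iron-sulfur protein, at 312 ± 18.0 and 317 ± 46.1 TPM. The largest change was that of Uqcrb, a subunit that contributes to ubiquinone binding. Uqcrb was at 687, 707, 766, 663 and 673 TPM in WT replicates 1 to 5 and at 739, 692, 999, 870.3 and 822 TPM in RhoB-/- replicates 1 to 5. Its groups overlapped through RhoB-/- replicates 1 and 2 (log2 fold change 0.23, SE 0.12, adjusted p = 0.183 in limma). It passed an adjusted p below 0.05 in limma under 3 of 20 alternative settings, all of which rescaled the libraries.

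Complex IV, cytochrome c oxidase, held the members that stood apart. Ndufa4, on the minus strand of chromosome 6 at chr6:11900292-11907497, codes for a subunit first counted with complex I and later placed in complex IV. Its TPM was 316, 301, 290.4, 254 and 273 in WT replicates 1 to 5 and 160.2, 175, 248, 244 and 178 in RhoB-/- replicates 1 to 5. Every RhoB-/- library was below every WT library, the closest pair being RhoB-/- replicate 3 and WT replicate 4. The means were 287 ± 24.5 and 201 ± 41.8 TPM (SD, n = 5 each), a log2 fold change of -0.53 (SE 0.14, adjusted p = 0.0218 in limma with Benjamini-Hochberg adjustment). An exact two-sided permutation test gave an unadjusted p = 0.00794, the smallest that 252 labellings allow. Groups of 5 without overlap always give this p, so it adds nothing to the lack of overlap. Of all tested genes 5.97% were higher and 8.55% lower without overlap. The change was -0.40 relative to the median of all tested genes.

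The adjusted p of Ndufa4 in limma was 0.0514 without WT replicate 2, 0.0584 without RhoB-/- replicate 1 and 0.0536 without the library labelled RhoB-/- replicate 5, with log2 fold changes of -0.51, -0.46 and -0.49, and below 0.05 in the other 7 of 10 omissions. Ndufa4 did not share the library order of its complex. Divided by the median of the other common complex IV subunits in the same library, it stood at 0.288 to 0.399 in WT and at 0.166 to 0.246 in RhoB-/- libraries, without overlap. In RhoB-/- replicate 3, where the other subunits were highest, this ratio was 0.202.

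Ndufa4 has a paralog, AA467197, the gene of the Nmes1 protein, which can take the place of Ndufa4 in complex IV. It is no member of the set and was looked up after the values of Ndufa4 were seen. AA467197 was at 238, 372, 316, 286 and 290.3 TPM in WT replicates 1 to 5 and at 732, 697, 813, 725 and 868 TPM in RhoB-/- replicates 1 to 5. It rose in each RhoB-/- library above each WT library, from 300.3 ± 48.7 to 767 ± 71.0 TPM (log2 fold change 1.36, SE 0.13, adjusted p = 2.95e-05 in limma), and stayed below an adjusted p of 0.05 in all 20 alternative settings. The ratio of AA467197 to Ndufa4 was 0.754 to 1.23 in WT and 2.97 to 4.88 in RhoB-/- libraries. The microRNA gene Mir147, which lies within AA467197, was listed at 0 in every library of this protocol. Ndufa4l2, the other paralog of Ndufa4 and a gene known for its rise in hypoxia, was listed at 0.25 TPM or less in all libraries.

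Cox7a2l was the member closest to the threshold after Ndufa4. It codes for a factor that joins complexes III and IV into supercomplexes rather than for a subunit, and C57BL/6J mice are known to carry a short form of the protein. Its TPM was 161, 235, 212, 209 and 213 in WT replicates 1 to 5 and 144, 139.7, 203, 157 and 146 in RhoB-/- replicates 1 to 5. WT replicate 1 was low and RhoB-/- replicate 3 high for their groups, and these 2 libraries made the groups overlap (206 ± 27.4 and 158 ± 26.1 TPM, log2 fold change -0.38, SE 0.13, adjusted p = 0.061 in limma, exact permutation p = 0.0159). Its adjusted p in limma was 0.0256 without WT replicate 1 and 0.0114 without RhoB-/- replicate 3, with log2 fold changes of -0.47 and -0.48. It ranged from 0.00225 to 0.135 over 20 alternative settings.

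Isoforms of complex IV subunits are known for tissue-restricted use, and IECs used mainly the common forms. Cox4i1 was at 1631 ± 226 in WT and 1666 ± 307 TPM in RhoB-/-, whereas Cox4i2, the lung and hypoxia form, was at or below 0.12 TPM. Cox6a1 was at 1424, 1941, 1917, 1744 and 1655 TPM in WT replicates 1 to 5 and at 1857, 1742, 2603, 2027 and 2392 TPM in RhoB-/- replicates 1 to 5. Its groups overlapped (1736 ± 211 and 2124 ± 363 TPM, log2 fold change 0.28, SE 0.14, adjusted p = 0.176 in limma), and its muscle counterpart Cox6a2 was at or below 0.26 TPM. Cox8a was at 1388 ± 157 and 1366 ± 193 TPM, Cox8b reached 0.52 TPM in 1 library only, and Cox8c and Cox7b2, known from testis, were listed at 0 throughout, with Cox7b at 393 ± 46.2 and 432 ± 75.3 TPM. Cox6c2, an annotated processed pseudogene, was read in 1 library, at 2.8 TPM. Cox6b1 was at 934 ± 113 and 1063 ± 137 TPM, and Cox6b2, its testis form, at 8.39 ± 2.67 and 11.5 ± 5.23 TPM.

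Cox7a1, the form of heart and skeletal muscle, was the exception. It was at 141, 193, 207, 179 and 175 TPM in WT replicates 1 to 5 and at 96.0, 123, 159.9, 147 and 167 TPM in RhoB-/- replicates 1 to 5. The groups overlapped through WT replicate 1 (179 ± 24.4 and 139 ± 29.0 TPM, log2 fold change -0.38, SE 0.16, adjusted p = 0.106 in limma, exact permutation p = 0.0476). The muscle genes Ckm, Mb, Myh2 and Tnnt3 were at or below 0.52 TPM in every library, and Acta1 was at 46.7 ± 12.8 in WT and 32.9 ± 10.6 TPM in RhoB-/-. Its counterpart Cox7a2 was at 354 ± 43.4 and 389 ± 76.2 TPM. Cox7a1 made up 31.9% to 34.6% of the sum of Cox7a1 and Cox7a2 in WT and 20.6% to 29.6% in RhoB-/- libraries, so these shares did not overlap.

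**Figure D4:**
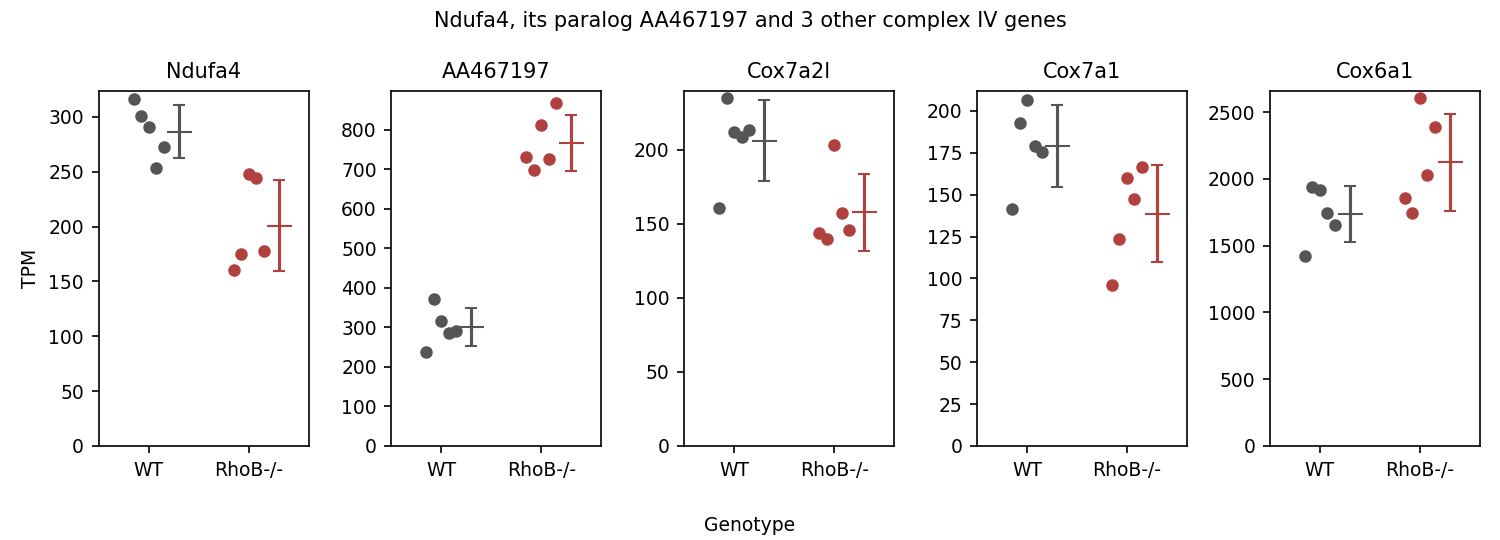
TPM (y axes, each from 0) of 5 genes in the 5 WT and 5 RhoB-/- libraries (x axes), with points for libraries and mean ± SD beside them. Ndufa4 and AA467197 do not overlap between genotypes and move in opposite directions (287 to 201 and 300.3 to 767 TPM), while Cox7a2l, Cox7a1 and Cox6a1 overlap.

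In complex V, the ATP synthase, 0 of 17 tested members passed an adjusted or an unadjusted p below 0.05 in limma. Atp5b, the catalytic beta subunit and the most abundant member, had the largest change. Its TPM was 2259.7, 2999, 2324, 2862 and 2193 in WT replicates 1 to 5 and 2089, 1810, 2509.7, 2092 and 2157 in RhoB-/- replicates 1 to 5. WT replicates 2 and 4 stood above the rest and the groups overlapped (2528 ± 374 and 2132 ± 250.1 TPM, log2 fold change -0.24, SE 0.14, adjusted p = 0.219 in limma). Atp5a1, the alpha subunit that alternates with it in the ring, was at 852 ± 66.5 and 825 ± 101 TPM. The 5 genes of the F1 head had a median log2 fold change of -0.05 and the 9 of the stalk and membrane part one of 0.11, and the F1 transcripts are the longer, at a median of 1410 against 809 bases. The membrane ring of subunit c is coded by 3 genes for the same mature protein, of which Atp5g3 was at 945 ± 35.2 and 1040.2 ± 211 TPM, Atp5g1 at 593 ± 32.5 and 594 ± 147 TPM and Atp5g2 at 9.42 ± 2.16 and 8.63 ± 3.10 TPM. A second row named Atp5o, with an identifier of its own (ENSMUSG00000116933), averaged 0.07 TPM in RhoB-/- and was listed at 0 in WT.

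Other mitochondrial genes were read beside the members from lists chosen by function. Of 49 tested assembly factors, which build the complexes without being part of them, 0 rose and 7 fell at an adjusted p below 0.05 in limma, with a median log2 fold change of -0.17. The 7 are 14.3% of the list, close to the 13.5% of all tested genes that were lower. At an unadjusted p below 0.05, 2 (4.08%) were higher and 14 (28.6%) lower, where 11.9% and 24.9% of all genes were. Among those that fell were Sco2, which delivers copper to complex IV (-0.64, adjusted p = 0.0117), Bcs1l, which inserts the Rieske protein into complex III (-0.59, adjusted p = 0.0216), and Cox10, which makes heme for complex IV (-0.48, adjusted p = 0.00779). Uqcc1, Lrpprc, Ndufaf1 and Atpaf2 were the others. The lower count was 3 without the library labelled RhoB-/- replicate 5, where Bcs1l, Lrpprc, Ndufaf1 and Atpaf2 passed no longer. It was 2 to 4 without WT replicate 2, 4 or 5 or RhoB-/- replicate 1, 2 or 4, where 6.66% to 9.48% of all tested genes were lower. It was 15 without RhoB-/- replicate 3, where 22.3% of all tested genes were lower. The adjusted p of Bcs1l was between 0.0519 and 0.0585 without WT replicate 2, WT replicate 4, RhoB-/- replicate 1 or the library labelled RhoB-/- replicate 5. The 13 subunits coded by mitochondrial DNA had a median of -0.26, and 0 rose or fell at an adjusted p below 0.05 in limma, with 0 higher and 1 lower at an unadjusted one. The difference between the lists was not tested.

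Of 15 electron carriers and ADP/ATP exchangers 1 rose and 1 fell at an adjusted p below 0.05 in limma, 6.67% each way. At that threshold the counts in this list and in the next ones lay close to the 7.73% higher and 13.5% lower of all tested genes or below them. Cycs, cytochrome c, was at 74.8, 73.6, 89.7, 76.5 and 75.7 TPM in WT replicates 1 to 5 and at 101, 82.7, 128, 113 and 127 TPM in RhoB-/- replicates 1 to 5. It was higher in 4 of the 5 RhoB-/- libraries than in any WT library (log2 fold change 0.48, SE 0.13, adjusted p = 0.0228 in limma), and its adjusted p was 0.0514 to 0.0569 without WT replicate 2, WT replicate 4, RhoB-/- replicate 4 or the library labelled RhoB-/- replicate 5. Coq9, needed to make ubiquinone, fell by 0.44 on the log2 scale (adjusted p = 0.0147). Among 18 tested regulators of mitochondrial biogenesis 1 rose, the nuclear receptor Esrra (log2 fold change 0.34, adjusted p = 0.0349) and 2 fell, Tfb1m and Tfb2m, which act on mitochondrial ribosomal RNA and transcription (-0.64 and -0.65). The adjusted p of Esrra was between 0.0555 and 0.0824 without WT replicate 1, 3, 4 or 5, RhoB-/- replicate 4 or the library labelled RhoB-/- replicate 5. Of 17 citric acid cycle genes 0 rose, also at an unadjusted p below 0.05, and 2 (11.8%) fell in limma, Idh2 (-0.43, adjusted p = 0.0273) and Pdha1 (-0.31, adjusted p = 0.0441). At an unadjusted p below 0.05, 6 of these 17 (35.3%), 7 of the 18 regulators (38.9%) and 1 carrier (6.67%) were lower. The share of all tested genes was 24.9%. Higher were 0 citric acid cycle genes, 1 regulator (5.56%) and 1 carrier (6.67%), where 11.9% of all genes were. The adjusted p of Idh2 was between 0.052 and 0.0742 without WT replicate 4 or 5, RhoB-/- replicate 1 or 2 or the library labelled RhoB-/- replicate 5, and that of Pdha1 between 0.0501 and 0.111 without WT replicate 1, 2, 4 or 5, RhoB-/- replicate 1, 2 or 4 or the library labelled RhoB-/- replicate 5. Without RhoB-/- replicate 3 the lower counts were 2 carriers, 4 regulators and 8 citric acid cycle genes, where 22.3% of all tested genes were lower. Without WT replicate 1 they were 1, 4 and 1, where 13.7% of all tested genes were lower.

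**Figure D5:**
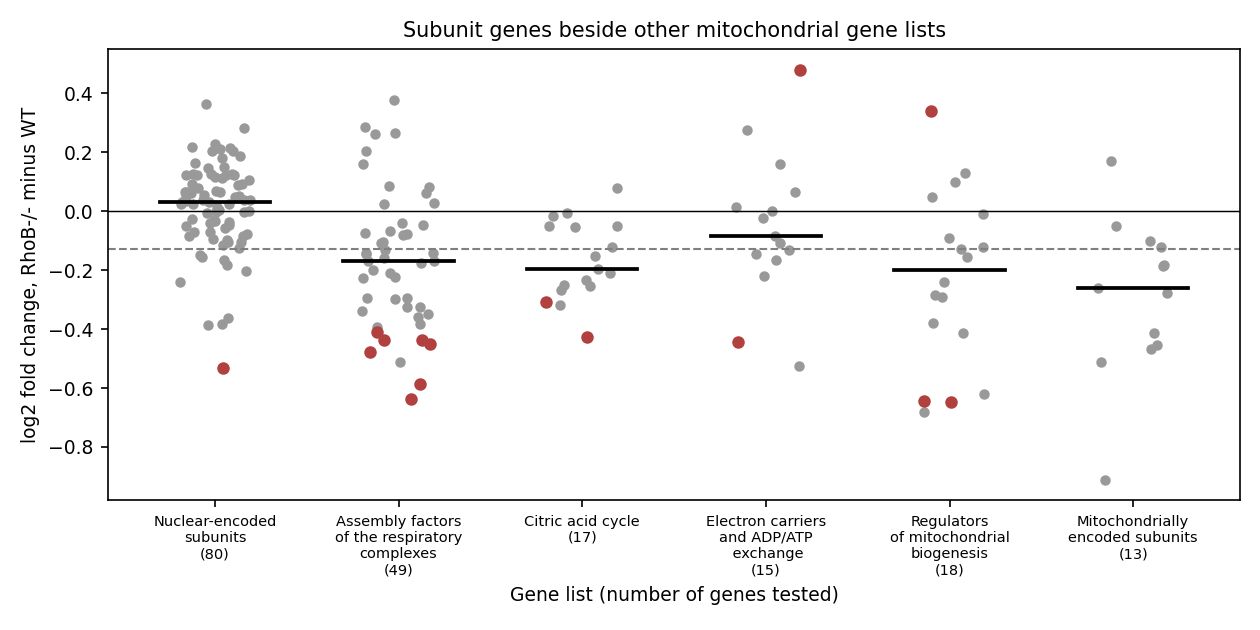
Log2 fold change, RhoB-/- minus WT (y axis), of each tested gene in 6 lists (x axis, number tested in brackets), red where the adjusted p was below 0.05. Black lines are list medians, 0.03 for the nuclear-encoded subunits and between -0.26 and -0.08 for the others, and the dashed line is the median of all tested genes.

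Markers of several cell types also differed between the genotypes. Of the 7 epithelial markers 2 (28.6%) rose at an adjusted p below 0.05 in limma, against 7.73% of all tested genes. All 7 had positive log2 fold changes. The epithelial count was 1 without the library labelled RhoB-/- replicate 5 and ranged from 1 to 4 with each replicate left out in turn. In limma 4 of 8 markers of mature colonocytes rose at an adjusted p below 0.05, against 7.73% of all tested genes, while 2 of the 8 had negative log2 fold changes, 1 of them at an unadjusted p below 0.05. Of 7 proliferation genes 2 fell, Mki67 and Mcm5, against 13.5% of all tested genes, and all 7 had negative log2 fold changes. Their count was 0 without WT replicate 1, 2 or 4, RhoB-/- replicate 2 or the library labelled RhoB-/- replicate 5, 1 without WT replicate 5 or RhoB-/- replicate 1 or 4, and 7 without RhoB-/- replicate 3. Without RhoB-/- replicate 3, 22.3% of all tested genes were lower, and in the other omissions named here 6.66% to 13.7% were. Of 4 tested T cell markers 3 rose, against 7.73% of all tested genes, and the 5 listed summed to 3.72 to 10.1 TPM in WT and 14.5 to 18.0 TPM in RhoB-/- libraries. Of 7 goblet cell markers 2 rose, against 7.73% of all tested genes, and 1 was lower at an unadjusted p below 0.05, against 24.9%. Of 4 tested stem cell markers 2 fell, against 13.5% of all tested genes. That count was 1 without WT replicate 2 or 4 or the library labelled RhoB-/- replicate 5, where 6.66% to 8.68% of all tested genes were lower. Cd68 of myeloid cells, Dcn of fibroblasts and Cidec, listed for adipocytes, also rose, while Adipoq, which defines adipocytes, was listed at 0. The 5 erythroid genes summed to 225 to 903 TPM in WT and 55.9 to 942 TPM in RhoB-/- libraries, with 0 called. Fewer cells of a type and less RNA per cell cannot be told apart in such bulk samples, and the part of these markers in the members' values was not tested.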

How the data were processed

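The data are 10 RNA-seq libraries of colon IECs, 5 WT and 5 RhoB-/-, grouped by their labels. The authors sequenced paired-end reads of 150 bp, trimmed them with SeqPrep and Sickle, and deposited TPM values from RSEM. The submitters' processing notes name HISAT2, StringTie, RSEM, edgeR and the build GRCm38.p6, with no versions. TPM is scaled within each library and keeps no depth, so counting error is unknown. Positions are those of GENCODE M21 on GRCm38 and promoter windows those of RefSeq on GRCm38.p6.

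Genotypes were compared with limma 3.58.1 in R 4.3.3 (lmFit, eBayes with trend) on values of log2(TPM + 1). The 12870 genes averaging at least 1 TPM entered the fit, with Benjamini-Hochberg adjustment over all of them. Errors beside TPM are SD between mice. The fit was tested on simulated data and recovered 82% of 200 genes changed 2-fold among 12870, with 4.09% of the calls on unchanged genes. The simulated noise was independent between genes, without the shifts that genes of a real library share. The planted changes were also larger than that of any member. These rates therefore check the fit and do not carry over to the members. Exact permutation tests were two-sided.

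The members and lists were chosen with earlier results of these data known. Named by rule were members with an adjusted p below 0.05, the most abundant and the most changed member of each complex, the core or catalytic subunits, the isoform pairs of complex IV, subunit c, members that are no subunits, and, in the other lists, called genes. Further genes, such as AA467197, were picked with their values in view. A gene that meets the rule is left out of the text and the labelled plots and is not reported here, though it counts in the totals. The rule on names misses Ndufab1, a subunit of complex I, and Ndufb1-ps, and keeps the annotated pseudogenes Ndufb4c, Ndufa11b, Ndufs6b and Cox6c2. Alternatives were a pseudocount of 0.1, no filter, a mean of at least 5 TPM, a replicate block, libraries centred on their median deviation, quantile normalization, mitochondrially encoded genes left out, limma without trend, each replicate left out and established subunits only. Centring on the members and leaving out RhoB-/- replicate 3 with WT replicate 1 were chosen after seeing the data.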

Additional observations from a re-analysis of the deposited data

Results flagged for a closer look

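For the 80 tested members in the 2 genotypes, 160 groups of 5 libraries were examined, and 4 held a library whose gap to its nearest neighbour exceeded Dixon's 95% critical value for 5 samples, where chance gives about 8. Ndufa5, an accessory subunit of complex I, was at 174 TPM in WT replicate 3 and at 155 to 159.95 TPM in the other WT libraries. Ndufv1 was at 126 TPM in WT replicate 1 and at 147 to 154 TPM in the others. In RhoB-/- replicate 3, Uqcr10 was at 1402 TPM, with 855 to 1002 TPM in the other RhoB-/- libraries, and Cox7a2l was at 203 TPM, with 139.7 to 157 TPM in the others. That library had the highest values of most members.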

How the results depend on the processing

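Members called at an adjusted p below 0.05 in limma were 0 higher and 1 lower as reported, and the same with a pseudocount of 0.1, without a filter, at a mean of at least 5 TPM, without trend and with established subunits only (Cox7a2l and Ndufb4c left out, Ndufab1 added, 79 tested). How the libraries were scaled changed this split, to 9 higher and 2 lower with libraries centred on their median deviation (15.6% and 12.8% of all tested genes), 3 and 11 with quantile normalization (12.3% and 15.3%), 0 and 7 with mitochondrially encoded genes left out (8.37% and 28.4%), and, chosen after seeing the data, 6 and 5 with libraries centred on the members (8.06% and 19.4%). Without RhoB-/- replicate 3 and WT replicate 1 together, also chosen after seeing the data, it was 0 and 4 (6.97% and 23.4%). Ndufa4 was lower in each of these fits. With each replicate left out in turn, the lower count ranged from 0 (without WT replicate 2, RhoB-/- replicate 1 or the library labelled RhoB-/- replicate 5) to 2 (without WT replicate 1 or RhoB-/- replicate 3), the higher count was 0, and the members' median ranged from -0.06 to 0.11. Over these omissions 6.66% to 22.3% of all tested genes were lower and 5.6% to 8.95% higher. The lower share was 13.7% without WT replicate 1 and 22.3% without RhoB-/- replicate 3. At an unadjusted p below 0.05 and a change above 1.5-fold the lower count was 1 with quantile normalization and with mitochondrially encoded genes left out, and 0 to 1 with replicates left out, the 1 being reached without RhoB-/- replicate 3 or RhoB-/- replicate 4. In the fit as reported 8.33% of all tested genes were lower by these thresholds, and the share in the other fits is not given here. Of the genes followed through the alternatives (those with a standard error or adjusted p in the report, and the other assembly factors named), 0 changed sign.

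Both genotypes use the replicate numbers 1 to 5 for different mice, and correlations between same-numbered libraries were -0.09 to 0.07. WT replicate 3 correlated best with the RhoB-/- library of its own number (0.07), and the other WT libraries did not. Such low values show no pairing by number but cannot exclude one, and the main fit used none. With a replicate block 0 members were lower, since Ndufa4 had an adjusted p of 0.0534 in limma, and Esrra, Bcs1l, Idh2, Pdha1, Uqcc1, Lrpprc, Ndufaf1 and Atpaf2 passed the threshold no longer. The depth behind each TPM value is unknown, no protein or enzyme activity was measured, and genes that share reads with pseudogenes are uncertain.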
